A study of Mus musculus with 10 samples.

Results

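The 389 genes described here are the neuroactive ligands and their receptors among the 29583 genes of the deposited table. They were chosen by annotation, not by level: the authors' KEGG annotation places 411 genes of the table in the pathway of neuroactive ligand-receptor interaction, and 410 of these have an Ensembl identifier. Left out were 15 genes that are also annotated to complement and coagulation and 6 that carry one of the names Adm, Lep, Pth1r, Pthlh, Nr3c1, Thra and Thrb. The study used MC3T3-E1, a mouse line of osteoblast precursors derived from the skull of newborn C57BL/6 mice, and kept the cells in medium with β-ecdysterone, a plant steroid. The question put to the data is which genes differ in level between cells with and without the compound. The labels give the strain as C57BL/6 and the age as newborn for every library, and they name the source as mesenchymal stem cells of bone marrow, which is not where this line comes from. The groups are 6 treated libraries (100, 150 and 200 μM, each on day 5 and day 10), 2 libraries at 0 μM (day 5 and day 10) and 2 libraries labelled untreated, A-5 and B-4, for which no time is given.

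Most of these genes code for cell-surface receptors and for the peptides and hormones that bind them. Receptors coupled to G proteins pass a signal on to adenylyl cyclase or phospholipase C, ligand-gated channels let ions cross the membrane, and single-pass receptors of the growth hormone type act through associated kinases. Many were first described in nerve tissue, but osteoblasts are known to carry receptors for nucleotides, prostaglandins, lysophospholipids, endothelin and growth hormone, and bone is supplied by nerves that release peptides such as substance P and vasoactive intestinal peptide.

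The library at 0 μM held 48951468 counts on day 5 and 31300928 counts on day 10. Treated libraries held between 27108562 and 58218009 counts, A-5 held 28772087 and B-4 held 29789271. Where a gene has 0 counts its true count may be as high as 3, or 0.0587 CPM (counts scaled to the size of the library) at 0 μM on day 5 and 0.0943 CPM on day 10. Intervals and floors of this kind cover counting error only. There is 1 library per dose and day. The labels put n at 3 for the RNA extraction, without telling what was repeated or whether RNA was pooled, and no source used here says whether the doses came from separate cultures, so that the p-values measure the spread between these libraries only.

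The untreated libraries stood apart from each other. Agt was at 8.26 FPKM in A-5 and 52.4 FPKM in B-4 (fragments scaled by the length of the transcript and by the depth of the library), and the osteoblast matrix gene Postn was at 67.4 FPKM in A-5 and 674 FPKM in B-4. For both genes B-4 lay between 0 μM and the treated libraries. Neither untreated library is used as a control except in alternatives, and each is given by itself below. As no time is known for them, every value below with A-5 and B-4 as the controls, or added to 0 μM, comes from a fit that also leaves out day, so that 2 choices change at once. Leaving out day alone kept 33 of 34 calls.

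Markers of osteoblast precursors were present at 0 μM in part. Runx2, the transcription factor of the lineage, was at 16.3 FPKM on day 5 and 14.8 FPKM on day 10 at 0 μM, and at 33.4 FPKM in the lowest, 36.0 FPKM in the median and 44.5 FPKM in the highest treated library. Col1a1, a chain of the main bone collagen, stood at 1283 FPKM and 1590 FPKM at 0 μM. Other markers of the lineage were near absent there: Alpl had 0 and 2 counts, Ibsp was at 0.292 FPKM and 0.371 FPKM, and Bglap at 0.97 FPKM and 0.4 FPKM. Of 10 osteoblast markers tested, 5 were higher in treated cells (Runx2, Sp7, Alpl, Ibsp and Postn) and 1 was lower (Dmp1). Their summed FPKM was 4566 on day 5 and 5404 on day 10 at 0 μM, 8186 to 16387 in treated cells with a median of 11333, 4105 in A-5 and 3477 in B-4, with Postn the most abundant in treated cells, Col1a2 at 0 μM and Spp1 in A-5 and B-4. These markers moved in the same comparison as the genes below, and their part in those results was not tested. In bulk libraries such as these, fewer cells of a type and less RNA per cell cannot be told apart.

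Among the 389 genes, 304 had at least 1 count in the 10 libraries and 85 had none. Levels were mostly low: 46 genes had a mean over 1 FPKM in the 8 libraries compared, and 18 had a mean over 10 FPKM. As a share of all counts, the list took 0.179% and 0.176% at 0 μM, between 0.239% and 0.333% in treated cells, 0.185% in A-5 and 0.21% in B-4. The summed level was 604 FPKM on day 5 and 605 FPKM on day 10 at 0 μM. In treated cells it was 724 FPKM in the lowest, 816 FPKM in the median and 1107 FPKM in the highest library, and it was 600 FPKM in A-5 and 687 FPKM in B-4. All 6 treated libraries therefore lay above both libraries at 0 μM in this sum, and 1 gene, Agt, makes up most of that gap.

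Treated cells were compared with 0 μM by a test across 16794 genes with day as a covariate. Calls needed a log2 fold change beyond 1 as well as an adjusted p under 0.05. With day in the fit, treated libraries of a day without its 0 μM library do not inform the fold change. Fold changes given below without the day 5 library at 0 μM thus rest on day 10 alone, and those without the day 10 one on day 5 alone. Of the 389 genes, 114 passed the filter on low counts and 275 did not, of which 190 had counts, with at most 21 in any library. A gene that passed only through the group in which it is high had to differ, so the counts that follow describe the list and support nothing. Gabrr2, Tacr1, Vipr1, Chrna10 and Cnmd, with 0 counts in both libraries at 0 μM, passed in this way. Their adjusted p-values below are likewise no support for a difference. Of the 114 genes tested, 28 were higher in treated cells (24.6%), beside 13.4% of all genes tested, and 6 were lower (5.26%), beside 5.98% of all genes tested. In CPM, 27 of the 28 higher genes lay above both libraries at 0 μM in all 6 treated libraries, and the 6 lower genes lay below both in all 6. Over the genes tested, called or not, 41 of 114 lay wholly above 0 μM (36%), beside 27.0% of all genes, and 19 lay wholly below (16.7%), beside 25.7%. The median log2 fold change was 0.52 for the list and 0.05 for all genes tested, and the former was 0.52 also with the 5 genes that had 0 counts at 0 μM set to their lower bound.

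The background also holds newly assembled loci, and among all Ensembl genes tested 10.1% were higher and 6.31% lower. Level bears on these shares. Among Ensembl genes with a mean under 1 CPM, 25.5% were higher and 5.46% lower, and in that range 13 of 56 genes of the list were higher (23.2%) and 3 lower (5.36%), near that background. Among Ensembl genes with a mean of 1 CPM or more, 7.33% were higher and 6.47% lower, and 15 of 58 genes of the list were higher (25.9%) and 3 lower (5.17%). The median log2 fold change depends on level too: it was 1.12 for the list and 0.73 for Ensembl genes under 1 CPM, and 0.20 and -0.06 at 1 CPM or more. Of the 28 higher genes, 18 had a mean under 1 FPKM. With A-5 and B-4 as the controls instead of 0 μM and no day term, 12 genes were higher, 2 were lower and 12 of the 34 calls were kept. The calls of Ghr (log2 fold change 0.86), Gabrr2 (1.78), Gria3 (1.45, adjusted p = 0.0586), Ptgfr (1.5, adjusted p = 0.0582), Tacr1 (3.38), Adora2a (0.72), Ptger4 (-1.05), Shb (-0.75) and Calcrl (-0.23) were lost there. Of these, Adora2a was lost also without a day term alone. Further calls lost were those of Cnmd (adjusted p = 0.301), Oprl1 (0.449), Tacr3 (0.0799), Sstr2 (0.0509), Vipr1 (0.617), Gabrb1 (0.556), Grin2b (0.0504), Chrna10 (0.141) and Shd (0.857). The log2 fold change stayed about as large for Tacr3 (2.4), Sstr2 (1.37) and Grin2b (2.94), and fell for Oprl1 (0.65), Gabrb1 (0.37) and Shd (0.13). The log2 fold change was -0.02 for Galr2 and -0.60 for P2rx6, and 2 of the 34 genes were not tested.

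**Figure D1:**
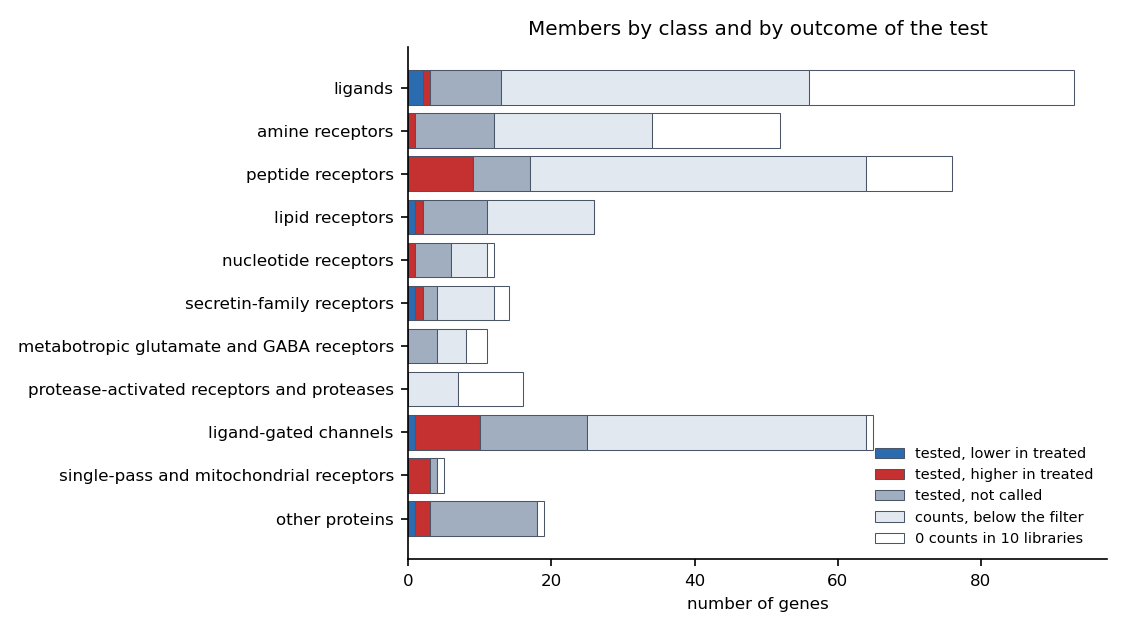
Bars show the number of genes in each of 11 classes, with colours for the outcome of the test of treated cells against 0 μM (edgeR, log2 fold change beyond 1, adjusted p under 0.05). Peptide receptors and ligand-gated channels hold 9 higher genes each, of 17 and 25 tested, beside 13.4% of all genes tested. No protease-activated receptor or protease passed the filter.

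Of 93 ligands, 56 had a count and 13 were tested, of which 1 was higher and 2 were lower. The counts of called genes by class stand beside 13.4% higher and 5.98% lower over all genes tested, and the classes are small. Agt codes for angiotensinogen, the precursor from which renin and converting enzyme release angiotensin peptides (ENSMUSG00000031980, chr8:124556534-124569706). Its level was 2.92 FPKM on day 5 and 2.29 FPKM on day 10 at 0 μM, 108 FPKM in the lowest, 209 FPKM in the median and 481 FPKM in the highest treated library, 8.26 FPKM in A-5 and 52.4 FPKM in B-4. Every treated library was above every other library, with B-4 the nearest, and the groups did not overlap. In treated cells the mean was 249 FPKM with an SD of 155 FPKM (n = 6 libraries of different doses and days, not replicates of 1 condition). The log2 fold change was 6.23 (SE 0.53, adjusted p = 2.0e-05), a 74.8-fold rise. It was 5.34 without the day 10 library at 0 μM and 7.47 without the day 5 one. With A-5 and B-4 as the controls it was 3.06 (adjusted p = 0.0462), far less. The angiotensin receptor genes Agtr1a, Agtr2 and Agtr1b were almost without signal, with 8, 5 and 0 counts over the 10 libraries. Mas1, which binds a shorter product, is given below. No ligand besides Agt had a mean over 10 FPKM, and Agt had the highest mean FPKM of the whole list, at 187.

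Prl2c2 codes for proliferin, a secreted relative of prolactin made in growing cell lines and placenta (ENSMUSG00000079092, chr13:12996125-13005383). It was at 10.3 FPKM on day 5 and 6.57 FPKM on day 10 at 0 μM, and at 0.0979 FPKM, 0.224 FPKM and 0.313 FPKM in the lowest, median and highest treated library. A-5, at 13.2 FPKM, resembled 0 μM, whereas B-4, at 0.921 FPKM, lay between the groups, which did not overlap. The log2 fold change was -5.13 (SE 0.35, adjusted p = 5.8e-06). Prl2c3, named here after its values were seen, is a near copy of the same gene; it had 107 and 42 counts at 0 μM and between 0 and 9 counts in treated libraries (log2 fold change -4.98, SE 0.60, adjusted p = 1.6e-04; -6.20 without the day 5 library at 0 μM and -4.33 without the day 10 one). Reads can fit both copies, so that the split between them is uncertain.

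Receptors for amines (52 genes, 12 tested) gave 1 called gene. Adra1d, the alpha-1D adrenergic receptor for noradrenaline, was the most abundant of the class. Its level was 40.6 FPKM on day 5 and 44.6 FPKM on day 10 at 0 μM, 16.4 FPKM, 23.6 FPKM and 34.2 FPKM in the lowest, median and highest treated library, 23.7 FPKM in A-5 and 18.7 FPKM in B-4. All treated libraries were below both libraries at 0 μM, yet the log2 fold change of -0.82 (SE 0.20, adjusted p = 0.00803) stayed within the fold limit. Without the day 5 library at 0 μM it was -1.17, past the limit, and without the day 10 one it was -0.43. Its sign turned with A-5 and B-4 as the controls (0.22, adjusted p = 0.597). Hrh1, the H1 histamine receptor, was the called gene. It stood at 0.0252 FPKM and 0.0509 FPKM at 0 μM (6 and 7 counts), at 0.0827 FPKM, 0.21 FPKM and 0.297 FPKM in the lowest, median and highest treated library, and at 0.016 FPKM in A-5 and 0.0281 FPKM in B-4. The treated libraries were all higher, at a low level, with a log2 fold change of 2.22 (SE 0.59, adjusted p = 0.0131). Without the day 5 library at 0 μM the call was lost (log2 fold change 1.56, adjusted p = 0.16), and without the day 10 one the log2 fold change was 2.88.

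Of 76 peptide receptors, 64 had a count and 17 were tested, with 9 higher (52.9%) and 0 lower by edgeR. Over all genes tested 13.4% were higher and 5.98% lower, and 25.5% of Ensembl genes under 1 CPM were higher. The median log2 fold change was 1.52 for the class, 0.05 for all genes tested and 0.73 for Ensembl genes under 1 CPM. The summed level of the class was 7.67 FPKM and 6.73 FPKM at 0 μM and 15.6 to 24.6 FPKM in treated cells, against 5.01 FPKM in A-5 and 6.38 FPKM in B-4. Ednra, the type A receptor for endothelin, carried most of it at 0 μM and in treated cells but not in A-5 and B-4 (ENSMUSG00000031616, chr8:77663031-77724464). It was at 4.78 FPKM on day 5 and 3.71 FPKM on day 10 at 0 μM, at 9.25 FPKM, 11.1 FPKM and 17.0 FPKM in the lowest, median and highest treated library, and at 1.03 FPKM in A-5 and 1.01 FPKM in B-4. The treated libraries were highest and the untreated ones lowest, with 0 μM between them and no overlap. Its log2 fold change was 1.52 (SE 0.23, adjusted p = 5.4e-04). Of its ligands, Edn1 had 61 counts over the 10 libraries and was not called, Edn2 had 0 and Edn3 had 2, and the second receptor, Ednrb, had 15.

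Mas1 codes for a receptor that binds angiotensin-(1-7), a shorter product of angiotensinogen. Its level was 0.309 FPKM and 0.281 FPKM at 0 μM, 0.742 FPKM, 1.47 FPKM and 1.63 FPKM in the lowest, median and highest treated library, 0.291 FPKM in A-5 and 0.511 FPKM in B-4. All 6 treated libraries were above the other 4 (log2 fold change 2.17, SE 0.30, adjusted p = 3.8e-04). Galr2, a galanin receptor, was at 0.437 FPKM and 0.548 FPKM at 0 μM, at 1.25 FPKM, 1.68 FPKM and 2.27 FPKM in the lowest, median and highest treated library, and at 1.14 FPKM in A-5 and 2.45 FPKM in B-4. Treated libraries were above 0 μM throughout, but B-4 was higher still (log2 fold change 1.87, SE 0.24, adjusted p = 2.5e-04). Galanin itself (Gal) had 18 counts over the 10 libraries. Npffr1, a receptor for RF-amide peptides such as neuropeptide FF, was at 0.0832 FPKM and 0.0605 FPKM at 0 μM, at 0.222 FPKM, 0.511 FPKM and 0.787 FPKM in the lowest, median and highest treated library, and at 0.171 FPKM in A-5 and 0.0619 FPKM in B-4. Its groups did not overlap (log2 fold change 2.67, SE 0.45, adjusted p = 0.00119). The gene for neuropeptide FF (Npff) had 311 counts over the 10 libraries and was not called.

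Tacr1, the receptor for substance P, was not seen at 0 μM, with 0 counts on both days (ENSMUSG00000030043, chr6:82402334-82560104). Treated libraries held 4, 13 and 5 counts on day 5 at 100, 150 and 200 μM, and 29, 55 and 83 counts on day 10 at the same doses; A-5 held 0 and B-4 held 4. It was thus low in treated cells on day 5 and higher on day 10. The mean in treated cells was at least 7.52-fold above the larger floor of the libraries at 0 μM (adjusted p = 3.1e-04). Tacr1 passed the filter through treated libraries alone, so this p-value supports nothing. The tachykinin genes Tac1 and Tac2 had 0 counts each. The other 4 called genes of the class, named after their values were seen, code for a somatostatin receptor (Sstr2), a neurokinin receptor (Tacr3), the nociceptin receptor (Oprl1) and a vasopressin receptor (Avpr1b). Their log2 fold changes were 1.41 for Sstr2, 2.60 for Tacr3, 2.49 for Oprl1 and 2.59 for Avpr1b, and no library had over 0.464 FPKM of any of these 4 genes. Without the day 10 library at 0 μM the calls of Sstr2 (log2 fold change 0.92), Oprl1 (2.11) and Avpr1b (2.93) were lost. That of Avpr1b was lost also without the day 5 one (2.19), with a log2 fold change about as large in both fits. The call of Sstr2 was lost also without the treated library of 200 μM on day 5 (1.32, adjusted p = 0.0518).

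**Figure D2:**
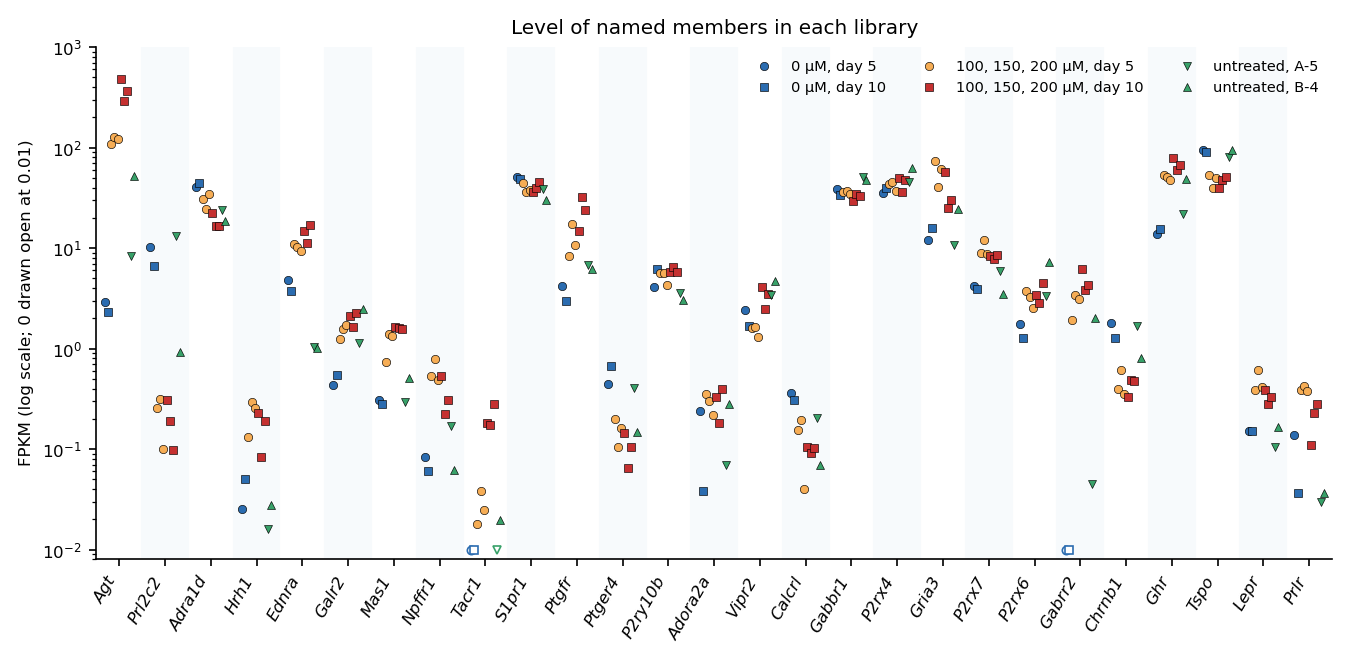
Each column is 1 gene and each point 1 library, in FPKM on a log axis; levels of 0 are drawn open at 0.01. Blue points are 0 μM, orange and red points the 6 treated libraries, green triangles the untreated libraries A-5 and B-4; Agt spans 2.29 to 481 FPKM, and B-4 lies near the treated libraries for Ghr and Gabrr2.

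All 26 lipid receptors had a count, and 11 were tested, with 1 higher and 1 lower. The most abundant, S1pr1, is a receptor for sphingosine 1-phosphate. It was at 50.9 FPKM and 48.1 FPKM at 0 μM, at 35.8 FPKM, 38.9 FPKM and 45.5 FPKM in the lowest, median and highest treated library, and at 38.5 FPKM in A-5 and 30.0 FPKM in B-4. Treated libraries lay just below 0 μM, but the difference did not pass the test (log2 fold change -0.26, SE 0.11, adjusted p = 0.0926; 0.26 with A-5 and B-4 as the controls). Ptgfr, the receptor for prostaglandin F2 alpha, rose (ENSMUSG00000028036, chr3:151796502-151837630). Its level was 4.2 FPKM on day 5 and 2.96 FPKM on day 10 at 0 μM, 8.31 FPKM, 15.9 FPKM and 32.1 FPKM in the lowest, median and highest treated library, 6.85 FPKM in A-5 and 6.13 FPKM in B-4. All treated libraries were above the other 4, and within each day the 150 μM library was highest. The log2 fold change was 2.20 (SE 0.43, adjusted p = 0.00266), 3.07 without the day 5 library at 0 μM and 1.52 without the day 10 one. Ptger4, a receptor for prostaglandin E2, fell. It was at 0.445 FPKM and 0.666 FPKM at 0 μM, at 0.0653 FPKM, 0.125 FPKM and 0.20 FPKM in the lowest, median and highest treated library, and at 0.403 FPKM in A-5 and 0.148 FPKM in B-4. A-5 was close to 0 μM and B-4 was among the treated libraries (log2 fold change -2.05, SE 0.38, adjusted p = 0.00204); the call was lost without the day 10 library at 0 μM (-1.51, adjusted p = 0.0633).

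Of 12 nucleoside and nucleotide receptors coupled to G proteins, 6 were tested and 1 was higher. P2ry10b, annotated to the nucleotide receptor family, led the class in FPKM. Its levels were 4.11 FPKM and 6.14 FPKM at 0 μM, 4.33 FPKM, 5.71 FPKM and 6.5 FPKM in the lowest, median and highest treated library, 3.57 FPKM in A-5 and 3.05 FPKM in B-4. These groups overlapped (log2 fold change 0.19, SE 0.13, adjusted p = 0.258). Adora2a, a receptor for adenosine that is coupled to adenylyl cyclase, was called. It stood at 0.239 FPKM on day 5 and 0.0379 FPKM on day 10 at 0 μM, at 0.182 FPKM, 0.313 FPKM and 0.395 FPKM in the lowest, median and highest treated library, and at 0.0698 FPKM in A-5 and 0.282 FPKM in B-4. In FPKM the groups overlapped, since the day 5 library at 0 μM was above 2 treated ones, whereas in CPM all 6 treated libraries were above both (log2 fold change 1.35, SE 0.40, adjusted p = 0.0211). That call was lost without a day term (adjusted p = 0.0554) and without the day 10 library at 0 μM (1.01, adjusted p = 0.169); without the day 5 one the log2 fold change was 1.96.

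Receptors of the secretin family (14 genes, 4 tested) gave 1 higher and 1 lower gene. Vipr2, a receptor for vasoactive intestinal peptide, was the most abundant. Its level was 2.40 FPKM on day 5 and 1.68 FPKM on day 10 at 0 μM, 1.31 FPKM, 2.06 FPKM and 4.11 FPKM in the lowest, median and highest treated library, 3.40 FPKM in A-5 and 4.68 FPKM in B-4. The treated libraries lay on both sides of 0 μM (log2 fold change 0.10, SE 0.34, adjusted p = 0.825), and without the day 5 library at 0 μM the gene was called as higher (1.07, adjusted p = 0.026), while without the day 10 one the log2 fold change was -0.63 (adjusted p = 0.131). The gene for the peptide (Vip) had 6 counts over the 10 libraries. Vipr1, the other receptor for the same peptide, named after its values were seen, had 0 counts in both libraries at 0 μM, in the 100 μM library of day 10 and in A-5, between 4 and 22 counts in the other treated libraries and 8 in B-4; its treated mean was at least 2.42-fold above the floor (adjusted p = 0.0248), and that call was lost without the day 5 library at 0 μM (adjusted p = 0.0997) or the day 10 one (adjusted p = 0.117).

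Calcrl codes for a receptor that answers calcitonin gene-related peptide or adrenomedullin, depending on which RAMP protein it is paired with. It was at 0.364 FPKM and 0.307 FPKM at 0 μM, at 0.0397 FPKM, 0.104 FPKM and 0.193 FPKM in the lowest, median and highest treated library, and at 0.206 FPKM in A-5 and 0.0697 FPKM in B-4. All treated libraries were below 0 μM and A-5 lay between the groups (log2 fold change -1.49, SE 0.40, adjusted p = 0.0133). Without the day 5 library at 0 μM the call was lost (-1.54, adjusted p = 0.0794), as it was without the day 10 one (-1.45, adjusted p = 0.0947). Of the RAMP genes, Ramp1 and Ramp2 were higher in treated cells. Ramp2 was at 2.07 FPKM and 3.13 FPKM at 0 μM, at 36.0 FPKM, 55.6 FPKM and 62.0 FPKM in the lowest, median and highest treated library, and at 2.32 FPKM in A-5 and 32.5 FPKM in B-4. The treated libraries were all above B-4, and A-5 was like 0 μM (log2 fold change 4.25, SE 0.26, adjusted p = 3.2e-06); with A-5 and B-4 as the controls the call was lost (1.56, adjusted p = 0.15). Calca, the gene for the peptide, had 4 counts over the 10 libraries.

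Metabotropic receptors for glutamate and GABA (11 genes, 4 tested) held 0 higher and 0 lower genes by edgeR. Gabbr1, a subunit of the GABA-B receptor, made up nearly all of the class. It was at 38.8 FPKM and 33.7 FPKM at 0 μM, at 29.5 FPKM, 34.3 FPKM and 37.3 FPKM in the lowest, median and highest treated library, and at 51.4 FPKM in A-5 and 47.7 FPKM in B-4. Treated and 0 μM libraries overlapped, and both untreated ones were higher (log2 fold change -0.05, SE 0.09, adjusted p = 0.643). Its partner subunit Gabbr2, which is needed for a working receptor at the cell surface, had 43 counts over the 10 libraries and was not tested. Of 16 protease-activated receptors and proteases, 7 had a count and none was tested. Prss2, a trypsinogen, had the highest mean FPKM of them, with 5 and 0 counts at 0 μM, 0 to 9 counts in treated libraries, 4 in A-5 and 0 in B-4.

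The 65 ligand-gated channels had counts in 64 cases, and 25 were tested, with 9 higher (36%) and 1 lower (4%). Over all genes tested 13.4% were higher and 5.98% lower, and 25.5% of Ensembl genes under 1 CPM were higher. The summed level of these channels was 78.7 FPKM and 83.5 FPKM at 0 μM, 99.5 to 153 FPKM in treated cells, 88.0 FPKM in A-5 and 123 FPKM in B-4. P2rx4, an ATP-gated cation channel, and Gria3, a subunit of AMPA-type glutamate receptors, took most of it. P2rx4 was at 35.3 FPKM and 40.0 FPKM at 0 μM, at 36.2 FPKM, 44.1 FPKM and 49.3 FPKM in the lowest, median and highest treated library, and at 45.3 FPKM in A-5 and 63.0 FPKM in B-4. The groups overlapped in FPKM and the difference did not pass the test (log2 fold change 0.31, SE 0.12, adjusted p = 0.063; -0.29 with A-5 and B-4 as the controls). Gria3 (ENSMUSG00000001986, chrX:41400854-41678601) was at 11.9 FPKM on day 5 and 15.7 FPKM on day 10 at 0 μM, at 25.3 FPKM, 48.8 FPKM and 72.7 FPKM in the lowest, median and highest treated library, and at 10.8 FPKM in A-5 and 24.3 FPKM in B-4. The treated libraries were all above 0 μM, with B-4 just below them, and within each day 100 μM was highest and 150 μM lowest. The mean in treated cells was 47.8 FPKM (SD 18.7 FPKM, n = 6 libraries of different doses and days). The log2 fold change was 1.79 (SE 0.39, adjusted p = 0.00467). Without the day 5 library at 0 μM its call was lost (1.36, adjusted p = 0.0615).

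Gabrr2 codes for a rho subunit of ion channels opened by GABA (ENSMUSG00000023267, chr4:33062999-33095865). It had 0 counts in both libraries at 0 μM, between 121 and 441 counts in the 6 treated libraries, 3 in A-5 and 130 in B-4. In FPKM the treated libraries stood at 1.93 in the lowest, 3.62 in the median and 6.17 in the highest, with A-5 at 0.0454 and B-4 at 2.01. B-4 thus lay inside the treated range, and both 0 μM libraries were empty. The treated mean was at least 80.3-fold above the floor (adjusted p = 8.1e-06). As the gene passed the filter through treated libraries alone, this p-value supports nothing. This call was lost with A-5 and B-4 as the controls (1.78, adjusted p = 0.19), with B-4 added to 0 μM (2.43, adjusted p = 0.194) and with both added (2.82, adjusted p = 0.1). Its neighbour in the family, Gabrr1, named after its values were seen, had 22 and 10 counts at 0 μM and 46 to 139 counts in treated libraries (log2 fold change 2.34, SE 0.35, adjusted p = 5.6e-04).

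A further pair of ATP-gated channels rose. P2rx7, best known from macrophages, was at 4.21 FPKM and 3.90 FPKM at 0 μM, at 7.83 FPKM, 8.68 FPKM and 12.1 FPKM in the lowest, median and highest treated library, and at 5.89 FPKM in A-5 and 3.53 FPKM in B-4. All treated libraries were above the other 4 (log2 fold change 1.21, SE 0.14, adjusted p = 1.1e-04). P2rx6, of the same family, was at 1.77 FPKM and 1.28 FPKM at 0 μM, at 2.56 FPKM, 3.35 FPKM and 4.49 FPKM in the lowest, median and highest treated library, and at 3.36 FPKM in A-5 and 7.27 FPKM in B-4. A-5 lay inside the treated range and B-4 above it (log2 fold change 1.16, SE 0.23, adjusted p = 0.00286), and the call was lost without the day 10 library at 0 μM (0.84, adjusted p = 0.0589). Chrnb1, a subunit of the muscle acetylcholine receptor, fell. It was at 1.80 FPKM and 1.28 FPKM at 0 μM, at 0.329 FPKM, 0.436 FPKM and 0.612 FPKM in the lowest, median and highest treated library, and at 1.68 FPKM in A-5 and 0.809 FPKM in B-4. All treated libraries were below the other 4 (log2 fold change -1.71, SE 0.25, adjusted p = 5.4e-04).

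The remaining 4 called channels, again named after their values were seen, were low. Trpv1, the channel opened by capsaicin and heat, had 0 and 8 counts at 0 μM and 44 to 133 counts in treated libraries, with 17 in A-5 and 22 in B-4 (log2 fold change 4.23, SE 0.64, adjusted p = 6.0e-04; 3.22 without the day 5 library at 0 μM). Without the day 10 one the control that is left has 0 counts, so no fold is given, and the call was kept. It was lost with B-4 added to 0 μM (2.63, adjusted p = 0.0503). Chrna10, a nicotinic receptor subunit, had 0 counts at 0 μM and 7 to 30 counts in treated libraries, at least 3.6-fold above the floor (adjusted p = 0.00252). Gabrb1, a GABA-A receptor subunit, and Grin2b, an NMDA receptor subunit, stayed at or below 0.0446 FPKM in every library. The log2 fold change of Gabrb1 was 1.36, and its call was lost without the day 5 (1.56) or day 10 library (1.19) at 0 μM. It was lost also without the treated libraries of 100 μM (1.3, adjusted p = 0.0634) or 150 μM (1.32, 0.0636) on day 5. The same held without 100 μM (1.33, 0.0568) or 200 μM (1.27, 0.066) on day 10. In all these fits the log2 fold change stayed about as large. The call of Grin2b was lost without the day 10 library at 0 μM (log2 fold change 1.7, against 2.52 with all libraries). It was lost also without the 100 μM libraries of day 5 (2.56, adjusted p = 0.0582) or day 10 (2.48, adjusted p = 0.0579).

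**Figure D3:**
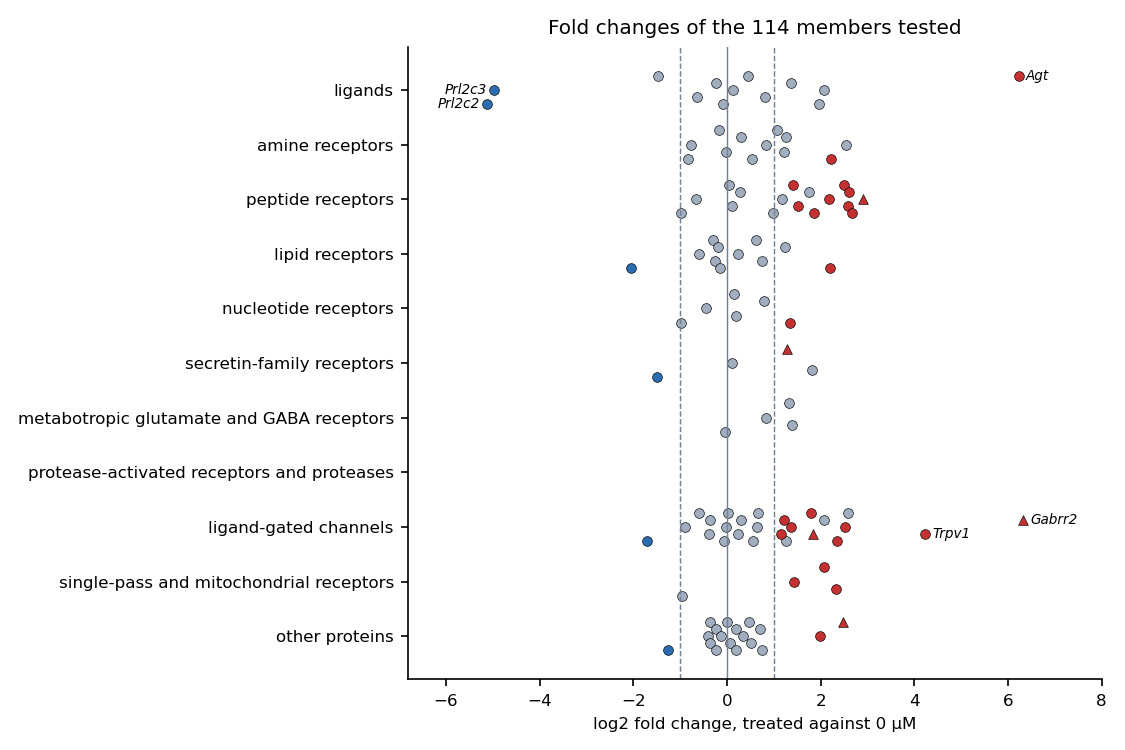
Points are the 114 genes tested, by class, at their log2 fold change of treated cells against 0 μM; red is higher, blue lower, grey not called, dashed lines mark the limits of -1 and 1, and names are given beyond 3. Triangles are the 5 genes with 0 counts at 0 μM, drawn at their lower bound; the peptide receptors lie mostly to the right, with 15 of 17 above 0.

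Single-pass and mitochondrial receptors (5 genes, 4 tested) held 3 higher genes, beside 13.4% of all genes tested, and 4 genes are too few to compare with that share. Ghr, the growth hormone receptor, had the highest mean FPKM of the receptors among the higher genes (ENSMUSG00000055737, chr15:3317760-3583492). It was at 13.8 FPKM on day 5 and 15.5 FPKM on day 10 at 0 μM, at 47.8 FPKM, 56.6 FPKM and 78.9 FPKM in the lowest, median and highest treated library, and at 21.7 FPKM in A-5 and 48.3 FPKM in B-4. The treated libraries were well above 0 μM, A-5 was nearer to 0 μM and B-4 just inside the treated range. The treated mean was 59.6 FPKM (SD 11.6 FPKM, n = 6 libraries of different doses and days). The log2 fold change was 2.07 (SE 0.16, adjusted p = 1.2e-05). The call was lost with A-5 and B-4 as the controls (0.86, adjusted p = 0.11) and with B-4 added to 0 μM (1.27, adjusted p = 0.0547). The gene for the hormone (Gh) had 67 counts over the 10 libraries and was not called.

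Lepr, the leptin receptor, was at 0.153 FPKM and 0.151 FPKM at 0 μM, at 0.281 FPKM, 0.385 FPKM and 0.612 FPKM in the lowest, median and highest treated library, and at 0.105 FPKM in A-5 and 0.164 FPKM in B-4. All treated libraries were above the other 4 (log2 fold change 1.43, SE 0.29, adjusted p = 0.00344), but without the day 5 library at 0 μM the call was lost (1.17, adjusted p = 0.0529). Prlr, the prolactin receptor, was at 0.137 FPKM and 0.0362 FPKM at 0 μM, at 0.11 FPKM, 0.329 FPKM and 0.42 FPKM in the lowest, median and highest treated library, and at 0.0301 FPKM in A-5 and 0.0367 FPKM in B-4. In FPKM the lowest treated library was below the day 5 library at 0 μM, while in CPM all 6 treated libraries were above both (log2 fold change 2.32, SE 0.33, adjusted p = 4.2e-04); Prl had 0 counts over the 10 libraries. Tspo, a cholesterol-binding protein of the outer mitochondrial membrane, was the most abundant of the class at 0 μM. Its level was 94.6 FPKM and 90.9 FPKM at 0 μM, 39.3 FPKM, 48.1 FPKM and 52.8 FPKM in the lowest, median and highest treated library, 81.0 FPKM in A-5 and 94.4 FPKM in B-4. Treated cells were below every other library, and the log2 fold change of -0.95 (SE 0.12, adjusted p = 2.3e-04) ended just inside the fold limit. With library totals in place of TMM factors it was -1.01, and without the day 10 library at 0 μM it was -1.0, and both passed the limit.

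The last 19 genes are in the pathway by annotation but are neither ligands nor receptors of it, such as chaperone activators, polarity proteins and adaptor proteins. Of these, 18 were tested, with 2 higher and 1 lower, so that they add little to the counts. Without them, 26 of 96 genes tested were higher, 5 were lower and the median log2 fold change was 0.71. Ahsa1, an activator of the chaperone Hsp90, was the most abundant. It was at 58.2 FPKM and 63.9 FPKM at 0 μM, at 42.8 FPKM, 44.0 FPKM and 52.5 FPKM in the lowest, median and highest treated library, and at 58.2 FPKM in A-5 and 50 FPKM in B-4. Treated libraries were below 0 μM by less than the fold limit (log2 fold change -0.37, SE 0.10, adjusted p = 0.0118). Shb, an adaptor protein of tyrosine kinase signalling, was at 6.68 FPKM and 8.33 FPKM at 0 μM, at 2.56 FPKM, 3.10 FPKM and 3.60 FPKM in the lowest, median and highest treated library, and at 5.90 FPKM in A-5 and 4.82 FPKM in B-4. Its treated libraries were below the other 4 (log2 fold change -1.25, SE 0.17, adjusted p = 3.3e-04). The higher genes were Cnmd, chondromodulin, with 0 counts at 0 μM and 8 to 46 in treated libraries (at least 5.59-fold above the floor, adjusted p = 0.00147), and Shd, an adaptor protein (log2 fold change 1.99, adjusted p = 0.00648), whose call was lost without the day 5 library at 0 μM (adjusted p = 0.113). Cnmd and Shd were named after their values were seen.

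Within treated cells, day 10 was compared with day 5 over the 3 doses of each day. Of the 114 genes, 3 were higher on day 10, beside 0.863% of all genes tested, and 0 were lower by edgeR, beside 0.161%; with no fold limit 1 was lower. Agt ranged from 108 to 126 FPKM on day 5 and from 292 to 481 FPKM on day 10 (log2 difference 1.77, SE 0.18, adjusted p = 0.00468). The days did not overlap, and at 0 μM Agt was no higher on day 10. Tacr1, from the counts above, differed by 2.81 on the log2 scale (SE 0.40, adjusted p = 0.0149). Vipr2 ranged from 1.31 to 1.65 FPKM on day 5 and from 2.46 to 4.11 FPKM on day 10 (log2 difference 1.22, SE 0.21, adjusted p = 0.0219), while at 0 μM it was lower on day 10 than on day 5. Without the 200 μM library of day 5 the count of higher genes was 0, and without that of day 10 it was 1.

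Whether the effect of treatment differed between days rests on 1 library at 0 μM per day. The log2 fold change of Agt was 5.35 (SE 0.36) on day 5 and 7.47 (SE 0.40) on day 10, and the difference of 2.11 (SE 0.40) did not pass the test (adjusted p = 0.306). For Vipr2 it was -0.63 (SE 0.28) on day 5 and 1.07 (SE 0.31) on day 10, again with no call for the difference (adjusted p = 0.393). Over the list, edgeR called 0 genes for a difference between days, beside 0.0119% of all genes, and 10 had an unadjusted p under 0.05 (8.77%), beside 8.31% of all genes. The median log2 fold change of the list was 0.48 on day 5 and 0.44 on day 10, beside 0.03 and 0.06 for all genes tested.

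A trend over dose within treated cells was called for 0 genes of the list by edgeR, beside 0.00600% of all genes tested, and 1 gene had an unadjusted p under 0.05 (0.877%), beside 2.35% of all genes. The dose range tested is 100 to 200 μM, so that nothing is measured between 0 and 100 μM. For Agt the change per 100 μM was -0.19 on the log2 scale (SE 0.22). Over the list the 100 μM libraries had the highest median log2 difference from the mean of both 0 μM libraries, on both days. On day 5 this median was 0.69 at 100 μM, 0.41 at 150 μM and 0.34 at 200 μM. On day 10 it was 0.69, 0.44 and 0.38 at the same doses, against the same mean. Over all genes tested it lay between 0.02 and 0.04. With 1 library per dose and day this order was not tested.

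**Figure D4:**
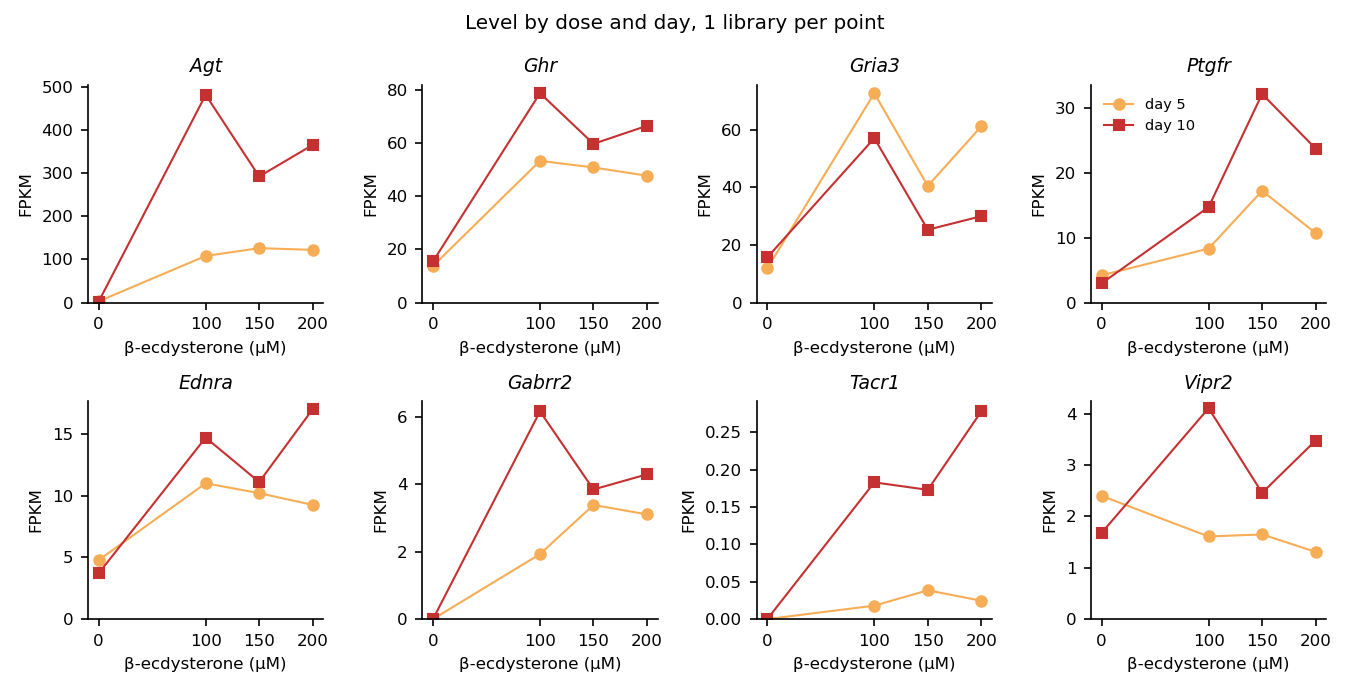
Level in FPKM (linear axes from 0) by dose of β-ecdysterone in μM for 8 genes, 1 library per point, with days 5 and 10 as separate lines. Agt, Tacr1 and Vipr2 are higher on day 10 at each of the 3 doses, and Gria3 is highest at 100 μM on both days, with 72.7 FPKM on day 5.

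The promoters of 3 genes are printed, since these are the called genes with 0 counts at 0 μM and a mean of at least 0.5 CPM (Gabrr2 and Tacr1) and the one with the highest level (Agt). They are 300 bases each, from 250 before to 50 after the start in RefSeq (GRCm38.p6), 5′ to 3′ on the gene's strand. For Gabrr2 and Tacr1 this start is not the GENCODE gene start printed above, but lies further into the gene. Positions are chr4:33062862-33063161 on the plus strand for Gabrr2, chr6:82402225-82402524 on the plus strand for Tacr1 and chr8:124569657-124569956 on the minus strand for Agt. Searched on both strands were TGTGGT, a Runx core motif held by 16.8% of all 32851 promoters, AGGTCA, a half-site of nuclear receptors held by 16.3%, and AGAACA, a half-site of steroid receptors held by 19%. Capitals mark matches. Gabrr2 holds 1 match, TGTTCT, which is AGAACA on the other strand, and none of these letters were found in the windows of Tacr1 and Agt. Of 24 higher genes with a promoter in the table, 5 held TGTGGT, 3 held AGGTCA and 6 held AGAACA. A match describes the letters and is not a bound site.
Gabrr2: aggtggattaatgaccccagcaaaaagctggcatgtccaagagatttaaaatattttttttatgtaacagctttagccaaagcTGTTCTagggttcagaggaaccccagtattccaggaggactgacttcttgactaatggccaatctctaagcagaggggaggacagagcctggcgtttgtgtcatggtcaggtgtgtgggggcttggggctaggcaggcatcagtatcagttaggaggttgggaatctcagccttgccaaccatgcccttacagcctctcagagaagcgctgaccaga
Tacr1: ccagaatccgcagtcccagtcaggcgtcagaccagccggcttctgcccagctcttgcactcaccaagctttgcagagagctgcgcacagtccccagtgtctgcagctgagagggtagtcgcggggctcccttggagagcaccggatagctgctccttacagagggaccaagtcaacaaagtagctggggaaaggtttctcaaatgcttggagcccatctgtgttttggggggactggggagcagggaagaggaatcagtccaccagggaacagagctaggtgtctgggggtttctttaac
Agt: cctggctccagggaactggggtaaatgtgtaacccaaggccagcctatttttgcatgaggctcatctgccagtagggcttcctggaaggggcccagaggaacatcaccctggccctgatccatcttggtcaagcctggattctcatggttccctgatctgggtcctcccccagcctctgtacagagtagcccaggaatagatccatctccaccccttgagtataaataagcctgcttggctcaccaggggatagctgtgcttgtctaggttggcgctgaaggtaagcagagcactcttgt

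Genes that make, carry on or end these signals were read from 8 lists of partner genes. The counts of called genes in these lists, and in the marker lists, stand beside 13.4% higher and 5.98% lower over all genes tested, and the lists are short. Among G protein alpha subunits, 3 of 12 tested were higher (Gnai1, Gna14 and Gna15) and 0 lower by edgeR. The most abundant, Gnas, which couples receptors to adenylyl cyclase, was at 453 FPKM and 519 FPKM at 0 μM and at 396 to 461 FPKM in treated cells (log2 fold change -0.10, SE 0.10, adjusted p = 0.463). The called subunits were all under 1 FPKM in every library, and the call of Gnai1 was lost without the day 5 library at 0 μM (adjusted p = 0.0574). Of 10 adenylyl cyclases and phospholipases C beta tested, 2 were higher (Adcy1 and Adcy9). Adcy9 was at 2.97 FPKM and 2.46 FPKM at 0 μM, at 5.36 FPKM, 6.45 FPKM and 6.92 FPKM in the lowest, median and highest treated library, and at 3.23 FPKM in A-5 and 6.57 FPKM in B-4. Its treated libraries were above 0 μM and B-4 lay among them (log2 fold change 1.28, SE 0.14, adjusted p = 1.1e-04). With A-5 and B-4 as the controls the calls of Adcy9 (0.39, adjusted p = 0.309), Gnai1 (2.29, adjusted p = 0.0604), Gna15 (1.81, adjusted p = 0.056) and Adcy1 (2.59, adjusted p = 0.052) were lost; against 0 μM the last 3 were at 3.58, 2.04 and 2.70.

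Of 20 receptor regulators tested, 4 were higher (Rgs2, Arrb1, Ramp1 and Ramp2) and 4 lower (Rgs4, Rgs11, Rgs14 and Rgs20). RGS proteins speed up the switching off of G proteins, and beta-arrestin 1 (Arrb1) ends receptor signalling and aids uptake. Rgs2 was at 0.294 FPKM and 0.27 FPKM at 0 μM, at 2.91 FPKM, 4.65 FPKM and 6.22 FPKM in the lowest, median and highest treated library, and at 0.528 FPKM in A-5 and 2.14 FPKM in B-4. Rgs4 went the other way, at 4.05 FPKM and 3.02 FPKM at 0 μM, 0.217 FPKM, 0.437 FPKM and 0.538 FPKM in the lowest, median and highest treated library, 1.13 FPKM in A-5 and 0.11 FPKM in B-4. Neither gene's groups overlapped, with a log2 fold change of 4.14 (SE 0.33, adjusted p = 1.4e-05) for Rgs2 and -3.11 (SE 0.21, adjusted p = 5.7e-06) for Rgs4. Rgs4 was at -0.57 (adjusted p = 0.545) with A-5 and B-4 as the controls, and the calls of Rgs11 (-0.94) and Rgs20 (-0.73) were lost as well. Without the day 5 library at 0 μM the log2 fold change of Rgs11 fell inside the limit (-0.98). Without the day 10 one that of Rgs20 did (-0.85) and the call of Rgs14 was lost (-4.11, against -4.96 with all libraries). Ramp1 had 21 counts on day 5 and 0 counts on day 10 at 0 μM. Its log2 fold change was 4.42 without the day 10 library, against 6.27 with all libraries. Without the day 5 one the control that is left has 0 counts, so no fold is given.

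For prostanoids, 2 of 9 genes tested were higher and 2 lower. Ptgs2, the inducible cyclooxygenase, was at 11.6 FPKM and 12.3 FPKM at 0 μM, at 2.50 FPKM, 3.95 FPKM and 4.93 FPKM in the lowest, median and highest treated library, and at 14.5 FPKM in A-5 and 3.71 FPKM in B-4. Ptgs1, the constitutive form, was at 30.2 FPKM and 28.8 FPKM at 0 μM, at 10.4 FPKM, 13 FPKM and 16.7 FPKM in the lowest, median and highest treated library, and at 30.2 FPKM in A-5 and 11.4 FPKM in B-4. Both cyclooxygenases were thus low in treated cells and in B-4 and high in the other 3 libraries, with log2 fold changes of -1.60 for Ptgs2 (SE 0.16, adjusted p = 5.2e-05) and -1.11 for Ptgs1 (SE 0.13, adjusted p = 1.4e-04; -0.78 without the day 5 library at 0 μM, inside the limit). Higher were the prostacyclin synthase Ptgis, whose log2 fold change without the day 5 library at 0 μM was 0.95 (adjusted p = 0.201), and the prostaglandin D synthase Ptgds, which had 0 counts at 0 μM. For lysophospholipids, 3 of 11 were higher (Enpp2, Plpp3 and Lipg) and 0 lower by edgeR. Enpp2, autotaxin, makes lysophosphatidic acid outside the cell; it was at 0.23 FPKM and 0.0404 FPKM at 0 μM, at 4.23 FPKM, 6.29 FPKM and 10.7 FPKM in the lowest, median and highest treated library, and at 1.12 FPKM in A-5 and 15.3 FPKM in B-4. B-4 was above every treated library (log2 fold change 5.31, SE 0.56, adjusted p = 7.4e-05; 7.44 without the day 5 library at 0 μM and 4.42 without the day 10 one). The call of Lipg was lost without the day 10 library at 0 μM (adjusted p = 0.138), and its log2 fold change was 3.12 without the day 5 one. With A-5 and B-4 as the controls none of these calls was kept. Lost were those of Ptgs2 (-1.17, adjusted p = 0.0551), Ptgs1 (-0.57, adjusted p = 0.224), Ptgis (0.62), Ptgds (adjusted p = 0.432) and Plpp3 (0.64). Lipg lost its call too (adjusted p = 0.11), with a log2 fold change about as large (2.01, against 2.13 with 0 μM). Enpp2 turned to -0.27 (adjusted p = 0.822).

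Enzymes and channels of extracellular nucleotides gave 5 higher of 13 (Nt5e, Entpd1, Entpd2, Entpd3 and Panx3) and 1 lower (Ada). Entpd3, which splits phosphates from ATP outside the cell, was at 0.737 FPKM and 1 FPKM at 0 μM, at 5.89 FPKM, 8.85 FPKM and 14.6 FPKM in the lowest, median and highest treated library, and at 1.11 FPKM in A-5 and 4.41 FPKM in B-4. Nt5e, which turns AMP into adenosine, was at 2.11 FPKM and 1.57 FPKM at 0 μM, at 3.85 FPKM, 5.14 FPKM and 7.45 FPKM in the lowest, median and highest treated library, and at 1.89 FPKM in A-5 and 9.34 FPKM in B-4. Ada, which breaks adenosine down, was at 3.43 FPKM and 4.21 FPKM at 0 μM, at 1.26 FPKM, 1.36 FPKM and 1.76 FPKM in the lowest, median and highest treated library, and at 3.47 FPKM in A-5 and 2.80 FPKM in B-4. Entpd3 and Nt5e thus rose and Ada fell, with no overlap between treated cells and 0 μM. Log2 fold changes were 3.52 for Entpd3 (SE 0.51, adjusted p = 4.4e-04), 1.53 for Nt5e (SE 0.25, adjusted p = 9.8e-04) and -1.38 for Ada (SE 0.18, adjusted p = 2.7e-04). Without the day 10 library at 0 μM the calls of Entpd1 and Entpd2 were lost, the latter also without the day 5 one. The log2 fold change of Entpd1 was then 1.88, against 2.68 with all libraries. That of Entpd2 stayed about as large, at 2.09 without day 10 and 2.29 without day 5, against 2.19. Without the day 10 library at 0 μM that of Panx3 was 4.16, against 3.49 with all libraries. Against A-5 and B-4 as the controls the calls of Entpd3 (1.8, adjusted p = 0.0629) and Entpd1 (2.16, adjusted p = 0.113) were lost. So was that of Entpd2 (1.31, adjusted p = 0.137), and Nt5e was at -0.09 (adjusted p = 0.915).

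Among genes for peptide processing and breakdown, Cpe and Enpep were higher and 2 of 13 tested were lower (Scg5 and Mme); the result for 1 gene of this list is not reported, so no count of higher genes is given. Cpe, a carboxypeptidase that trims peptide hormones, had the highest mean FPKM. It was at 180 FPKM and 173 FPKM at 0 μM, at 281 FPKM, 476 FPKM and 529 FPKM in the lowest, median and highest treated library, and at 207 FPKM in A-5 and 213 FPKM in B-4. Treated libraries were above all others (log2 fold change 1.39, SE 0.21, adjusted p = 6.0e-04). Mme, neprilysin, breaks down small peptides at the cell surface; it was at 83.5 FPKM and 71.2 FPKM at 0 μM, at 25.9 FPKM, 32.9 FPKM and 45.9 FPKM in the lowest, median and highest treated library, and at 226 FPKM in A-5 and 94.3 FPKM in B-4. Treated libraries were below all others here (log2 fold change -1.12, SE 0.11, adjusted p = 4.5e-05). Enpep, which acts on angiotensin peptides, was at 8.99 FPKM and 11.3 FPKM at 0 μM and at 13.7 to 70.5 FPKM in treated libraries (log2 fold change 1.59, SE 0.54, adjusted p = 0.0363). The call of Enpep was lost without the day 5 or day 10 library at 0 μM. Its log2 fold change stayed about as large there, at 1.82 and 1.37. The call was lost without the 100 μM (1.5, adjusted p = 0.0601) or 200 μM library (1.62, adjusted p = 0.056) of day 5. It was lost also with A-5 and B-4 as the controls (2.25, adjusted p = 0.0708), as was that of Scg5 (-0.93, adjusted p = 0.354).

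Among genes for small transmitters, 2 of 10 were higher (Ddc and Glul) and 0 lower by edgeR. Glul, glutamine synthetase, was at 12.5 FPKM and 15.3 FPKM at 0 μM, at 52.2 FPKM, 68.8 FPKM and 93.6 FPKM in the lowest, median and highest treated library, and at 16.4 FPKM in A-5 and 79.5 FPKM in B-4. Ddc, the decarboxylase that forms dopamine and serotonin, was at 0.242 FPKM and 0.114 FPKM at 0 μM, at 2.99 FPKM, 3.39 FPKM and 4.07 FPKM in the lowest, median and highest treated library, and at 0.0415 FPKM in A-5 and 1.46 FPKM in B-4. Both were high in treated cells and low at 0 μM and in A-5, with log2 fold changes of 2.38 for Glul (SE 0.22, adjusted p = 3.7e-05) and 4.23 for Ddc (SE 0.29, adjusted p = 5.8e-06; 4.97 without the day 5 library at 0 μM). Glul in B-4 was within the treated range. Both calls were lost with A-5 and B-4 as the controls (0.54, adjusted p = 0.45 for Glul and 2.17, adjusted p = 0.0805 for Ddc), and that of Glul also with B-4 added to 0 μM (0.97, adjusted p = 0.228).

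Since nerve tissue is where many of these receptors are best known, markers of other cell types were read in the same way. Of 8 neuron markers, 5 were tested, 0 were higher by edgeR and 1, Tubb3, was lower. Their summed level was 7.37 FPKM and 8.38 FPKM at 0 μM, 1.06 FPKM, 2.29 FPKM and 3.11 FPKM in the lowest, median and highest treated library, 8.04 FPKM in A-5 and 3.18 FPKM in B-4, most of it Tubb3, and Snap25, Elavl4 and Gad1 had 0 counts at 0 μM. Among 6 glia and Schwann cell markers, S100b was at 1.7 FPKM and 1.36 FPKM at 0 μM, at 7.85 FPKM, 9.27 FPKM and 18.8 FPKM in the lowest, median and highest treated library, and at 2.77 FPKM in A-5 and 6.74 FPKM in B-4. Its treated libraries were above the other 4 (log2 fold change 2.78, SE 0.31, adjusted p = 9.4e-05), while Sox10, which defines the lineage, had 0 counts at 0 μM and at most 0.0229 FPKM in treated libraries. The count and the sum of this list are not given, since 1 of its genes is not reported.

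Of 6 markers of macrophages and other blood cells, 3 were tested and 1, Lyz2, was higher (log2 fold change 1.09). The other 2 were not called and went the other way, Csf1r at -0.94 and Cd68 at -0.46, the latter at 0.681 to 0.946 FPKM in treated libraries against 1.14 FPKM and 1.12 FPKM at 0 μM. Their sum was 12.0 FPKM and 20.8 FPKM at 0 μM, 22.3 FPKM, 30.3 FPKM and 42.4 FPKM in the lowest, median and highest treated library, 12.0 FPKM in A-5 and 16.3 FPKM in B-4, so that its rise is that of Lyz2, with Ptprc and Adgre1 at 0 counts at 0 μM and at most 0.0654 FPKM in treated libraries. Endothelial markers had 2 higher of 3 tested (4 in all), Cdh5 (log2 fold change 3.44) and Tek (1.77), while Pecam1 was not called (0.75, adjusted p = 0.0937). Their sum was 0.145 FPKM and 0.17 FPKM at 0 μM, 0.449 FPKM, 0.458 FPKM and 0.604 FPKM in the lowest, median and highest treated library, 0.156 FPKM in A-5 and 0.151 FPKM in B-4; Kdr had 0 counts at 0 μM. Muscle markers had 3 higher of 3 tested (5 in all), and their sum, led by Des except in B-4, was 0.638 FPKM and 0.539 FPKM at 0 μM, 1.33 FPKM, 2.11 FPKM and 2.68 FPKM in the lowest, median and highest treated library, 0.727 FPKM in A-5 and 1.34 FPKM in B-4, with Actn2 at 0 counts at 0 μM. Adipocyte markers had 0 called of 2 tested and chondrocyte markers 0 called of 3 tested by edgeR. The chondrocyte marker Sox9 was just inside the fold limit (log2 fold change 0.96, SE 0.16, adjusted p = 0.00118), at 9.05 FPKM and 8.06 FPKM at 0 μM and 12.8 to 18.4 FPKM in treated libraries. The part of the glial, blood, endothelial, muscle and chondrocyte markers in the results was not tested.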

How the data were processed

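RNA was sequenced by the authors from MC3T3-E1 cells, and the submitters' processing notes name HISAT2 2.0.4 and GATK 3.2-2. The counting program, the genome build and the annotation version are not given in the sources used here. The authors deposited 1 table with unnormalized read counts and FPKM for each gene in 10 libraries. The table also holds the authors' own comparisons of libraries, which were not used. Positions are from GENCODE M21 by Ensembl identifier, found for all 389 genes, and promoters are from RefSeq (GRCm38.p6), found for 298 of them. Python work used pandas 2.3.3, numpy 2.4.6 and matplotlib 3.10.9.

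Counts were fitted in R 4.3.3 with edgeR 4.0.16 (TMM, filterByExpr, quasi-likelihood F test) over the whole table, 6 treated libraries against 2 at 0 μM with day as a covariate, and p-values were adjusted by Benjamini-Hochberg over all genes tested. A model with 4 groups gave the comparisons of days, and dose was tested as a number within the 6 treated libraries, with day as a covariate. The untreated libraries were left out because they carry no time. Alternatives were DESeq2 1.42.0, library totals, DESeq2 size factors in edgeR, a minimum of 1 count in total or of 10 counts in every library, a fit that ignores day, calls without the fold limit, A-5 and B-4 as controls instead of 0 μM or beside it (both without a day term), limma 3.58.1 on log2(FPKM + 1), dose as a factor for the days, and each library left out in turn. Added after seeing the data were each day alone, the list without the 19 genes that are neither ligands nor receptors, and the alternatives for partner genes.

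Genes were named by a rule: within each class, up to 4 called genes in each direction with the highest mean CPM, at least 0.5, the gene with the highest mean FPKM if it was not called, and every gene called between days or for dose; their ligands or receptors are given beside them. Partner genes given with values were chosen after their values were seen. The list and the classes, marker lists and partner lists were chosen with earlier results of these data known. At-least folds divide the mean CPM in treated libraries by the larger floor of 3 counts of the libraries at 0 μM.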

Additional observations from a re-analysis of the deposited data

Results flagged for a closer look

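The untreated libraries A-5 and B-4 were left out of the comparison of treated cells with 0 μM and served only in alternatives to its controls. Of the 28 genes of the list that were higher in treated cells, 16 had an FPKM above both libraries at 0 μM in A-5 and 19 did in B-4, and 5 and 4 were below both. Genes called as higher are partly chosen for a low level at 0 μM: of all 2254 genes called as higher, 55.7% were above both in A-5 and 71.2% in B-4, and 18.5% and 11.5% were below both. In A-5 5 of the 28 lay within the range of the 6 treated libraries, and in B-4 9 did, beside 19.4% and 30.7% of all genes called as higher. The labels give no time for these libraries, and what sets them apart from 0 μM was not tested. Whether B-4, which lay among treated libraries for several genes, is labelled rightly was not tested either, and every value with it as a control rests on that label. By the ratio of gap to range in CPM, no named gene had 1 of the 6 treated libraries past Dixon's 95% limit for 6 values; the highest ratio was 0.61, for P2rx7 at 150 μM on day 5.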

How the results depend on the processing

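The 28 higher and 6 lower genes moved to 12 and 3 with at least 10 counts in every library, where 15 of the 34 called genes were tested, to 12 and 2 with A-5 and B-4 as the controls instead of 0 μM and no day term, and to 6 and 3 with limma on log2(FPKM + 1). The higher count was 14 with B-4 added to 0 μM and 16 with both untreated libraries added, again with no day term, and the lower count was 14 with no fold limit. The median of 0.52 was 1.40 with at least 1 count in total (0.27 over all genes tested, against 0.05), 0.15 with at least 10 counts in every library, 0.32 with B-4 added, 0.27 with both added, 0.07 with limma and 0.71 without the 19 other proteins. With no fold limit 1 gene was lower on day 10. With A-5 and B-4 as the controls instead of 0 μM the log2 fold change turned to -0.02 for Galr2, -0.60 for P2rx6, -0.27 for Enpp2 and -0.09 for Nt5e, all called before, and to 0.22 for Adra1d, -0.29 for P2rx4, 0.26 for S1pr1 and -0.68 for Vipr2, none of them called. With B-4 added it was -0.03 for P2rx4 and -0.24 for Vipr2, and with both added -0.01 and -0.25. All fits with A-5 or B-4 leave out day as well, so 2 choices change at once; leaving out day alone kept 33 of 34 calls. The filters change which genes are tested; otherwise the cause was not tested. With 1 library left out at a time, the counts ranged from 21 to 31 higher and 6 to 8 lower, the median from 0.41 to 0.64, and the genes higher on day 10 from 0 to 4; those lower on day 10, those with an effect that differs between days and those with a dose trend were 0 throughout. Vipr2 then ranged from -0.63 to 1.07 and Gabbr1 from -0.14 to 0.03, so that both changed sign. A lone library at 0 μM is then assumed to vary like the others. Since these fits keep day, the fold change then rests on the day of that lone library, and repeats the effect of that day. DESeq2 kept all 34 calls.

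Over all alternatives, 509 of 572 values of the named genes kept their direction and side of the limits, 44 lost the call, 7 gained one and 12 changed sign, 2 of them in called genes. For the other called genes 178 of 227 did, and for partner genes 548 of 623. Partner genes were 24 higher and 9 lower, and 7 and 5 with A-5 and B-4 as the controls and no day term, where 7 of the 33 calls were kept. Genes at few counts limit the reading: 18 of the 28 higher genes had a mean under 1 FPKM. In GENCODE M21 exons of Adra1d, P2rx6, Ptger4, Ptgfr, Ednra, Tspo, Gria3, P2rx7, Ahsa1, Prlr, Chrna10, Gabrb1 and Grin2b overlap those of another gene, and the part of such reads was not tested.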
